A study of Mus musculus with 4 samples.

Results

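The genes described here carry a testis name: Spata (spermatogenesis associated), Spag (sperm associated antigen) and Tex (testis expressed) followed by a number, and Ropn1 (ropporin, a sperm flagellum protein). Members were chosen by symbol alone, with Spata7, Spag1, Spag6l, Spag16 and Spag17 left out, which gave 31 of the 18471 genes of the table. RNA had been sequenced from retinas of mouse embryos at embryonic day 19, with 2 libraries labelled wild-type and 2 labelled Foxn3KO, each from an individual genotyped embryo. The Foxn3KO embryos lacked exon 3 of the forkhead gene Foxn3 (genotype Foxn3-/-, allele C57BL/6NJ-Foxn3em1(IMPC)Bay/Mmnc), with no tissue restriction given. The questions asked of these genes were which of them the embryonic retina expresses and which differ between the genotypes.

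Many genes were first described in testis because a sperm cell builds a flagellum, remodels its nucleus and translates stored messages, and so expresses genes that other tissues use little. A flagellum and a motile cilium share the axoneme, a ring of doublet microtubules with dynein arms, radial spokes and a central pair. Retinal cells instead carry a primary cilium, which in photoreceptors becomes the connecting cilium and lacks the central pair. Other testis-named genes act in every dividing or secreting cell and keep the name of the tissue in which they were found.

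The targeted gene was examined first. For Foxn3, 2421 and 2712 reads were counted in wild-type and 4181 and 3219 in Foxn3KO. The groups did not overlap, and Foxn3 was called higher in the libraries labelled Foxn3KO, with a log2 fold change of 0.54 (edgeR adjusted p = 7.80e-08). Counts per gene cannot show whether exon 3 is missing. Because the targeted gene went against the label, every direction given here rests on the labels: wild-type and Foxn3KO always name libraries by their label. Total counts ran from 22543531 to 29360129, and 3 counts, the limit taken for a value of 0, equalled 0.103 to 0.134 CPM (the unit is read count over library size, scaled to a common total). Library sizes were corrected with TMM factors, which allow for RNA composition. Markers of retina were present in all libraries, with 19 of 20 having a row and summed levels of 3863 to 4056 CPM in wild-type and 3984 to 4047 CPM in Foxn3KO. Single retina markers moved both ways: Nrl, Rcvrn, Six3 and Six6 were called higher (log2 fold changes of 0.14 to 0.91) and Isl1, Onecut1 and Prox1 lower (-0.51 to -0.16). One library stood apart by sex, since Xist was counted 83073 times in replicate 1 of wild-type and 9 to 19 times elsewhere. Lens markers also differed, with 8 of 9 having a row, all 8 called higher, and summed levels of 5.36 and 62.0 CPM in wild-type against 247 and 249 CPM in Foxn3KO. Of 9 retinal pigment epithelium markers, 8 had a row and 3 were called lower (Pmel, Tyr and Ttr), with sums of 53.3 and 78.4 CPM in wild-type and 43.0 and 44.1 CPM in Foxn3KO. Of 10 choroid plexus and ependyma markers, 9 had a row, with Foxj1, Folr1 and Aqp1 called higher and Clic6 and Ttr lower. This list, which holds the retinal gene Otx2, summed to 480 and 484 CPM in wild-type and 638 and 652 CPM in Foxn3KO. Otx2 made up most of these sums, with means of 461 CPM in wild-type and 454 CPM in Foxn3KO. The rise of the sum lay in Foxj1, also a motile cilium gene, with means of 8.01 and 176 CPM. In bulk retina, fewer cells of a type and less RNA per cell cannot be told apart.

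Most of the testis-named genes with a row were expressed in the wild-type retina. Of 31, 20 had at least 1 CPM in both wild-type libraries and 13 had at least 10 CPM in both. None was under 0.1 CPM in both, but the table starts at a sum of 16 counts over the libraries, so rarer genes are not in view. RefSeq lists 78 symbols that fit the naming rule. Of these, 27 had a row under that symbol, 3 had one under a newer symbol, and 48 were not analysed here. In the libraries labelled Foxn3KO, 24 of the 31 reached 1 CPM in both. The plot of levels by library shows this spread, from a wild-type mean of 0.290 CPM for Tex38 to one of 354 CPM for Spag9.

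**Figure D1:**
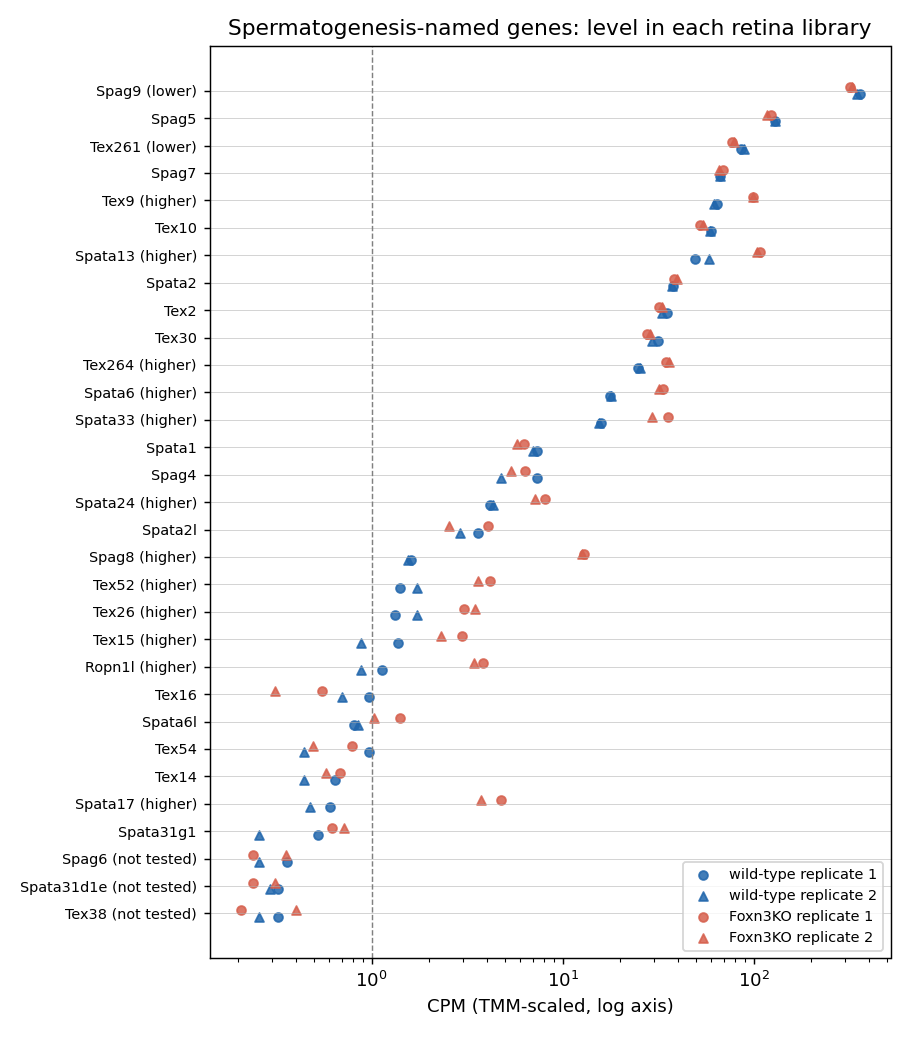
Level of each of the 31 testis-named genes in each library, in CPM on a log axis, with wild-type in blue, Foxn3KO in red, circles for replicate 1 and triangles for replicate 2. The dashed line marks 1 CPM, and the largest gaps between the colours are at Spag8 and Spata17, both in the lower part of the range.

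Levels were then compared between genes per kilobase of gene length. On this scale Spag7, an R3H domain protein, led the wild-type libraries with 44.9 ± 0.202 CPM per kb (SD, n = 2). It was followed by Spag9, the scaffold protein JIP4 of JNK signalling and vesicle transport, at 31.5 ± 0.643, and by Spag5, the mitotic spindle protein astrin, at 23.0 ± 0.137 CPM per kb. Tex261, a membrane protein of the early secretory pathway, had 21.4 ± 0.556 and Tex30 had 15.7 ± 0.776 CPM per kb. Among these top 5 genes, no neighbours in the order overlapped within 1 SD. The same 5 genes held the same order in the libraries labelled Foxn3KO, from 45.5 ± 1.65 CPM per kb for Spag7 to 14.6 ± 0.439 for Tex30. From Spata1 to Tex26, at 1.74 down to 0.739 CPM per kb in wild-type, each gene lay within the summed SD of the next, so their order is not resolved.

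Between the genotypes, more testis-named genes rose than fell. Of the 31 genes, 28 passed the filter on low counts. Of these, 12 (42.9%) were called higher in Foxn3KO and 2 (7.14%) lower, at an edgeR adjusted p under 0.05. Over all 17300 tested genes, 12.3% were called higher and 9.66% lower (21.9% in all). A rise of at least 2-fold was called for 7 genes (25%), against 2.86% of all tested genes. Both Foxn3KO libraries lay above both wild-type libraries for 15 genes (53.6%, against 29.9% of all tested genes), and below them for 7 (25%, against 30.5%). In 6 genes the groups overlapped. The median log2 fold change of the 28 was 0.37, beside -0.0047 over all tested genes. This median moved when a library was left out, to 0.54 without wild-type replicate 1, 0.18 without wild-type replicate 2, 0.21 without Foxn3KO replicate 1 and 0.41 without Foxn3KO replicate 2. The count of 12 higher genes did not move, and they were the same 12, in each of these 4 fits. The lone library of its group is assumed there to vary like the other group.

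The filter on low counts was checked against these calls. Of the 28 tested genes, 27 reached the count minimum in both wild-type libraries, so they did not enter through the Foxn3KO libraries alone. The exception was Spata31g1, with 13 and 7 counts in wild-type and 18 and 16 in Foxn3KO, which was not called (edgeR adjusted p = 0.303). Genes low and high in wild-type both took part. Below a wild-type mean of 10 CPM, 7 of 15 testis-named genes were called higher, against 9.21% of all tested genes at that level. At 10 CPM or more, 5 of 13 were called higher, against 14.1%. Replicates of the members lay close together, with a median absolute log2 difference over the tested members of 0.084 within wild-type and 0.13 within Foxn3KO. Over all tested genes the wild-type replicates were the less alike, with medians of 0.104 within wild-type and 0.0769 within Foxn3KO. The mean chi-square per gene between replicates, over genes with enough counts, was 10.1 within wild-type and 1.89 within Foxn3KO. This mean was not trimmed, and it includes Xist, with 83073 and 17 counts in the wild-type replicates. A single gene can thus carry much of the wild-type value, which is not the spread of a typical gene.

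**Figure D2:**
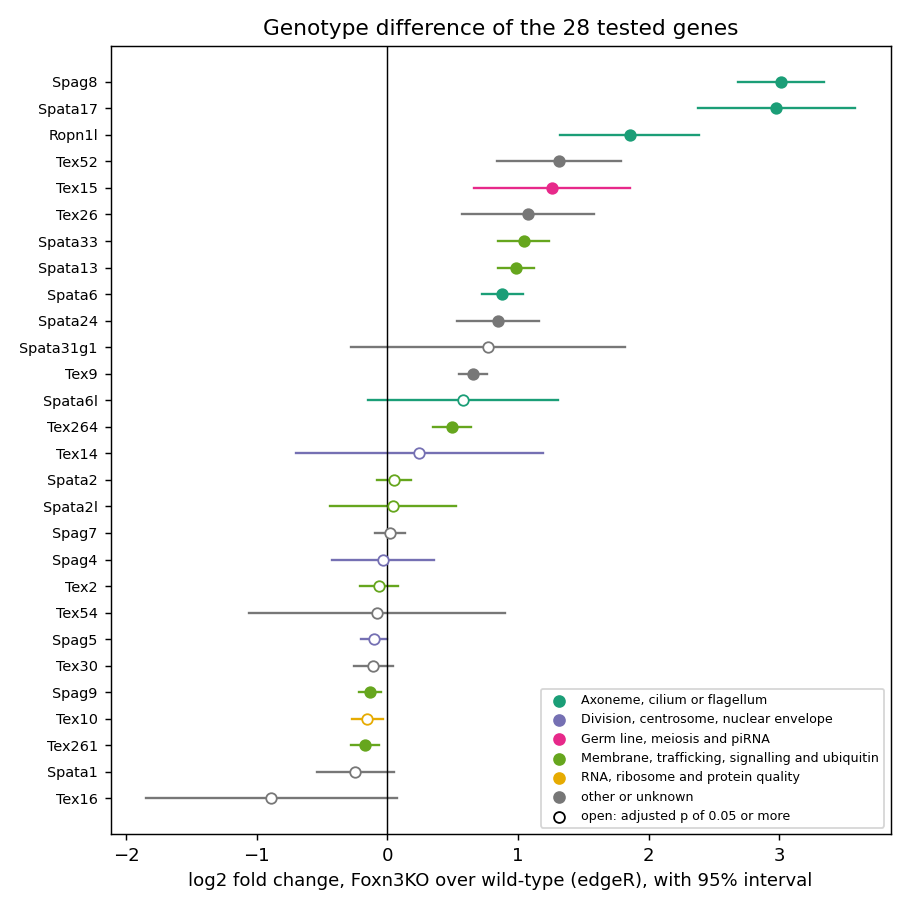
Log2 fold change (Foxn3KO over wild-type) of the 28 tested genes with its 95% interval, coloured by role, filled where the edgeR adjusted p was under 0.05. Spag8, Spata17 and Ropn1l, 3 axonemal genes, stand at the top, and the 2 filled points left of 0 are Spag9 and Tex261.

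The genes with the largest rises code for parts of the motile axoneme. Spag8, a protein inside the doublet microtubules, was read 40 and 42 times in wild-type and 377 and 283 times in Foxn3KO. Means were 1.58 ± 0.0475 and 12.8 ± 0.219 CPM (SD, n = 2 per group), and the groups were far apart. Its log2 fold change was 3.02 (SE 0.157, edgeR adjusted p = 8.41e-11), an 8.09-fold rise. Spata17, a calmodulin-binding protein of the central apparatus, had 15 and 13 counts in wild-type and 138 and 84 in Foxn3KO. Its wild-type level of 0.542 ± 0.0894 CPM was near the low end of the table, and it reached 4.24 ± 0.699 CPM (SD, n = 2 per group). The log2 fold change was 2.98 (SE 0.285, edgeR adjusted p = 3.85e-07).

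Ropn1l, a ropporin-like protein of the radial spoke, had 28 and 24 counts in wild-type and 111 and 77 in Foxn3KO, again without overlap. Its level went from 1.01 ± 0.174 to 3.63 ± 0.264 CPM (SD, n = 2 per group), with a log2 fold change of 1.86 (SE 0.252, edgeR adjusted p = 2.96e-05). Spata6, needed to form the connecting piece that joins sperm head and tail, was already well expressed, with 438 and 486 counts in wild-type and 979 and 713 in Foxn3KO. It rose by 0.88 in log2 units (edgeR adjusted p = 8.64e-08). Its paralogue Spata6l had 20 and 23 counts in wild-type and 41 and 23 in Foxn3KO, a log2 fold change of 0.58 with a 95% interval from -0.15 to 1.31 (edgeR adjusted p = 0.263). Whether the paralogues differ was not tested, and 48.5% of the exon bases of Spata6l lie opposite those of Slc1a1. In all, 4 of the 5 tested genes of the axoneme, cilium or flagellum group were called higher and none lower. The role groups were set with earlier results of these data known, so such counts are descriptions. Over all tested genes, 12.3% were called higher and 9.66% lower. Markers of choroid plexus and ependyma, tissues with motile cilia, moved both ways in the same libraries. In log2 fold change, Foxj1 (4.45), Folr1 (1.94) and Aqp1 (1.22) were called higher and Clic6 (-1.53) and Ttr (-0.83) lower. The part of these tissues in the rises was not tested.

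Spag6, a central pair protein, was the remaining gene of the axoneme, cilium or flagellum group. It had 9 and 7 counts in wild-type and 7 and 8 in Foxn3KO, under the filter, so it was not tested. The exact 95% Poisson interval of the lowest library, 0.240 CPM, ran from 0.0966 to 0.495 CPM, and such intervals cover counting error only. Spag6 has a close copy in Spag6l, and reads of one may have been assigned to the other. Spag6l, left out by the rule, had 32 and 55 counts in wild-type and 343 and 281 in Foxn3KO. Spmip7, which carries the older symbol Spata48 and also codes for a microtubule inner protein, had 18 and 20 counts against 26 and 20 and was not called (edgeR adjusted p = 0.643).

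Promoters of the called genes were read for binding letters of RFX factors, which control cilia genes, and of forkhead factors. Of the 31 genes, 24 had an entry in the RefSeq promoter table (build GRCm38.p6, 250 bases before to 50 after the start), 10 of them called higher. The deposited table is on another build, mm39 according to the submitters' processing notes. RFX proteins bind paired half-sites, searched here as GTNNCC, a gap of 1 to 3 bases, then GGNNAC, a pattern that reads alike on both strands and was chosen after the promoters had been seen. It was found in 3 of the 10 called genes, in 1 of 14 others (Spag5), in 12.5% of all genes called higher and in 5.02% of all tested genes with an entry. The single half-site GTTGCCA, on either strand, was in 2 of the 10 (Spag8 and Spata33), in 0 of the 14, in 11.7% of all genes called higher and in 4.72% of all tested genes. Its longer form GTTNCCATG, which shares those letters, was in 1 of the 10 (Spata33), in 5.56% of all genes called higher and in 1.79% of all tested genes. Both half-sites lie after the RefSeq start, at 26 in Spag8 and at 4 in Spata33. The Spag8 window given below ends before the start and does not hold it. The forkhead letters TGTTTAC were in 0 of the 24, beside 2.72% of all genes called higher and 3.06% of all tested genes. Only these exact letters were searched for, on either strand, so variants of them were not counted. The Spag8 window below, for example, holds tgtttat, which differs in the last letter. A match is a description of the letters, not a bound site.

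The windows of the 3 genes with paired half-sites come first here, followed by Spag8 and Spata17, the genes with the largest rises, whose windows hold no pair. Each window runs from 100 bases to 1 base before the RefSeq start, 5′ to 3′ on the gene's strand, and capitals mark the paired half-sites with their gap.
Ropn1l (chr15:31453690-31453789, minus strand, GRCm38.p6): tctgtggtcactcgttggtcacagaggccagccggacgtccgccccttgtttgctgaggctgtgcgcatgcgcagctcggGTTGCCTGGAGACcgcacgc
Tex264 (chr9:106685953-106686052, minus strand, GRCm38.p6): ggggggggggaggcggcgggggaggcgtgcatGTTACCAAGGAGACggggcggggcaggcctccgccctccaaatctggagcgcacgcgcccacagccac
Tex9 (chr9:72491960-72492059, minus strand, GRCm38.p6): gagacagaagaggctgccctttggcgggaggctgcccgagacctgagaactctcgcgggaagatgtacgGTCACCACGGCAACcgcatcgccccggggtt
Spag8 (chr4:43653595-43653694, minus strand, GRCm38.p6): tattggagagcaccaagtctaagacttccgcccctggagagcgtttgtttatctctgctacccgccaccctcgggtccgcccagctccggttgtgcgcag
Spata17 (chr1:187215447-187215546, minus strand, GRCm38.p6): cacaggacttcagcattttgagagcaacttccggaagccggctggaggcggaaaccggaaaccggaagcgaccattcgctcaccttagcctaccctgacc
Counted from the RefSeq start, the pair began at -20 in Ropn1l, at -31 in Tex9 and at -68 in Tex264. Tex264 has another RefSeq start, for which the same letters begin at -204. The rises of these 3 genes spanned 0.49 to 1.86 on the log2 scale, while Spag8 (3.02) and Spata17 (2.98) rose more without a pair in the window.

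Outside the axoneme, cilium or flagellum group, genes of signalling, membranes and organelle turnover went both ways. Spata33, which tethers calcineurin to sperm mitochondria, had 396 and 423 counts in wild-type and 1037 and 656 in Foxn3KO. The mean went up from 15.8 ± 0.283 to 32.5 ± 4.47 CPM (SD, n = 2 per group), with a log2 fold change of 1.04 (SE 0.0914, edgeR adjusted p = 1.15e-07). The Foxn3KO replicates differed, at 35.6 and 29.3 CPM, but both lay well above wild-type. Spata13, a guanine nucleotide exchange factor, rose by 0.98 (edgeR adjusted p = 2.79e-09), from 49.4 and 58.4 CPM to 109 and 105 CPM. Tex264, a receptor that delivers endoplasmic reticulum to autophagosomes, rose by 0.49 (edgeR adjusted p = 4.22e-05), from 24.9 and 25.5 to 35.0 and 36.0 CPM.

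The 2 genes that fell did so slightly. Spag9 had 359 and 349 CPM in wild-type and 319 and 326 in Foxn3KO, without overlap. Its log2 fold change was -0.13 (SE 0.0410, edgeR adjusted p = 0.0258), a fall to 0.911 of the wild-type level. Tex261 went from 86.2 and 89.4 to 77.4 and 78.7 CPM, a log2 fold change of -0.17 (SE 0.0504, edgeR adjusted p = 0.0217). Both calls were lost when either Foxn3KO library was left out, with edgeR adjusted p = 0.371 and 0.220 for Spag9, and 0.222 and 0.140 for Tex261. Tex261 also missed the threshold in DESeq2 (adjusted p = 0.0884). In this role group, 3 of 8 genes were called higher and 2 lower, beside 12.3% and 9.66% of all tested genes. The other 3, Spata2, Spata2l and Tex2, had log2 fold changes of 0.05, 0.04 and -0.06.

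Spata2, which bridges the deubiquitinase CYLD to the linear ubiquitin ligase complex, was steady, at 38.1 and 37.3 CPM in wild-type and 38.5 and 39.5 in Foxn3KO. The 95% interval of its log2 fold change ran from -0.08 to 0.18. Its paralogue Spata2l was less precise, at 3.63 and 2.91 CPM in wild-type and 4.05 and 2.55 in Foxn3KO, with an interval from -0.44 to 0.53. The groups of Spata2l overlapped.

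Genes with roles in cell division were not called. Spag5 had 130 and 129 CPM in wild-type and 123 and 118 in Foxn3KO, a log2 fold change of -0.10 with an interval from -0.20 to -0.0058 and an edgeR adjusted p of 0.125. Spag4, a SUN-domain protein of the nuclear envelope, had overlapping groups, 7.38 and 4.75 against 6.39 and 5.36 CPM (log2 fold change -0.03, edgeR adjusted p = 0.933). Tex14, which keeps the intercellular bridges of germ cells open, had 16 and 12 counts against 20 and 13 (edgeR adjusted p = 0.751). Tex10, a subunit of a complex needed for ribosome assembly, was at 59.6 and 59.1 CPM against 52.5 and 54.3 (log2 fold change -0.15, edgeR adjusted p = 0.0580), just outside the threshold. It passed under total count scaling (adjusted p = 0.0319) and without wild-type replicate 2 (adjusted p = 0.0344). Afg2a, formerly Spata5, which acts in ribosome maturation, was not called either, with a log2 fold change of 0.09 (edgeR adjusted p = 0.444).

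Tex15 was the single member of the germ line, meiosis and piRNA role group, a protein that directs piRNA-guided silencing of transposons in male germ cells. It had 34 and 24 counts in wild-type and 87 and 52 in Foxn3KO, so the groups did not overlap. Its level of 1.13 ± 0.345 CPM rose to 2.65 ± 0.471 CPM (SD, n = 2 per group), with a log2 fold change of 1.26 (SE 0.283, edgeR adjusted p = 0.00363). The value ranged from 0.97 to 1.61 when a library was left out and kept its call, with a largest adjusted p of 0.0386.

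Of the genes with no settled role in the groups above, 4 of 10 tested were called higher and none lower, beside 12.3% and 9.66% of all tested genes. Tex52 had 35 and 47 counts in wild-type and 122 and 81 in Foxn3KO, a log2 fold change of 1.31 (SE 0.225, edgeR adjusted p = 0.000336). It shares 144 exon bases, 7.68% of its own, with Foxm1 on the same strand, and Foxm1 was called lower by 0.24 on that scale. Tex26 had 33 and 47 counts against 89 and 78, with no overlap, and a log2 fold change of 1.08 (SE 0.239, edgeR adjusted p = 0.00319). Spata24 rose by 0.85 (edgeR adjusted p = 0.000449), from 4.19 and 4.34 to 8.14 and 7.19 CPM. Of its exon bases, 41.9% are shared on the same strand with another entry, SPATA24, that has no row. How reads from those bases were counted is not known here. Tex9 had the highest wild-type CPM, not scaled by gene length, of the 12 genes that rose. It went from 63.2 ± 1.44 to 99.4 ± 0.815 CPM (SD, n = 2 per group), a log2 fold change of 0.65 (edgeR adjusted p = 2.17e-08). It shares 32.3% of its exon bases with Mns1 on the opposite strand, a cilia gene that was itself called higher by 0.42. The libraries were made with a directional kit according to the labels, but the use of strand in counting is not given in the sources used here, so part of this value may belong to Mns1. In all, 10 of the 31 genes share exon bases with another gene of the table, 2 of them called.

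The rest of this group did not pass. Spag7 was steady at 66.9 and 66.4 against 69.2 and 65.8 CPM, and Tex30 had a log2 fold change of -0.11 (edgeR adjusted p = 0.332). Spata1 had 7.38 and 7.03 CPM in wild-type and 6.32 and 5.80 in Foxn3KO (log2 fold change -0.24, edgeR adjusted p = 0.236). Tex16, which lies on the X chromosome, had 24 and 19 counts against 16 and 7, a log2 fold change of -0.89 with an interval from -1.85 to 0.07. Its higher wild-type count came from the library with Xist, and that part was not tested. Tex54 overlapped between groups, with 24 and 12 counts against 23 and 11. Spata31d1e and Tex38 had 6 to 9 counts in every library and were not tested. The intervals of Tex54 (-1.06 to 0.90), Tex14 (-0.70 to 1.19) and Spata31g1 (-0.28 to 1.82) were wide, so smaller differences were not detectable at this depth.

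**Figure D3:**
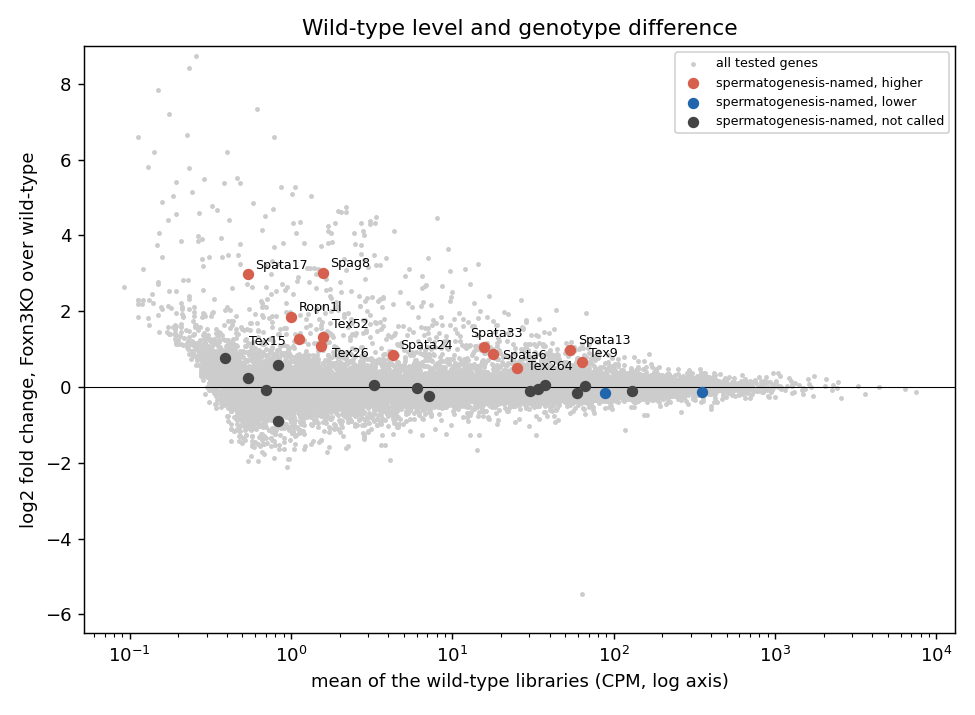
Mean of the wild-type libraries in CPM (log axis) against log2 fold change (Foxn3KO over wild-type) for all 17300 tested genes in grey and the 28 testis-named genes in colour, with 1 gene, Xist, below the drawn range. The 12 red points are spread from 0.542 to 63.2 CPM, and the larger rises lie at the lower levels. Smaller rises were harder to call at low levels, as for Spata31g1 (0.77, not called), so this pattern among called genes depends in part on counts.

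Lists of germ cell genes and of motile cilium genes show what else moved. Of 47 germ cell and meiosis genes, 22 had a row and 20 were tested. Of those 20, 1 (5%) was called higher, beside 12.3% of all tested genes, and 3 lower, with a median log2 fold change of -0.04. Zbtb16 (-0.48, edgeR adjusted p = 0.000548), Kit (-0.25, edgeR adjusted p = 0.00976) and the meiotic recombinase gene Dmc1 (-0.38, edgeR adjusted p = 0.0205) fell, and Mei4 rose (0.84, edgeR adjusted p = 0.0157). Kit and Zbtb16 are also active outside the germ line. Ddx4, the germ cell helicase, had 27 and 42 counts in wild-type and 38 and 52 in Foxn3KO and was not called (edgeR adjusted p = 0.413). The list summed to 176 and 183 CPM in wild-type and 160 and 169 CPM in Foxn3KO.

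Spermatid and sperm genes were mixed. Of 48, 19 had a row and were tested, with 4 (21.1%) called higher, beside 12.3% of all tested genes, 1 lower, beside 9.66%, and a median of 0.11. Among the genes that rose were Meig1 (4.60), Lrguk (2.94) and Tcp11 (1.62), with edgeR adjusted p-values of at most 6.32e-10. Meig1 had 6 and 8 counts in wild-type and 192 and 151 in Foxn3KO. It thus reached the count minimum only through the Foxn3KO libraries. Meig1 is needed to build the sperm flagellum. Crem, a transcriptional activator of spermatids that is also expressed in brain, fell by 0.32 (edgeR adjusted p = 0.00747). The measured genes of the acrosome and of the CatSper channel were not called, among them Acrbp (log2 fold change 0.01), Catsper2 (-0.15) and Acr (0.63, edgeR adjusted p = 0.0536).

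Motile cilium genes moved almost as a block. Of 50, 40 were tested and 39 (97.5%) called higher, beside 12.3% of all tested genes, with a median log2 fold change of 2.93. Some of them reached the count minimum only through the Foxn3KO libraries, so hardly any other call was open to them. Examples are Cfap44 with 8 and 4 counts in wild-type, Cfap52 with 1 and 7, and Cfap43 with 7 and 0. With so few wild-type counts, the size of such rises is imprecise. Foxj1, the forkhead activator of motile cilium genes (4.45), Dnah10 (7.32) and Cfap44 (8.43) had the smallest p-values, with edgeR adjusted p-values of at most 1.08e-17. No called testis-named gene reached the list median of 2.93 except Spag8 and Spata17. This list summed to 815 and 824 CPM in wild-type and 2276 and 2286 CPM in Foxn3KO. The germ cell list, the spermatid list and the motile cilium list each come from the same libraries and the same contrast as the testis-named genes, and no test between lists was made.

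**Figure D4:**
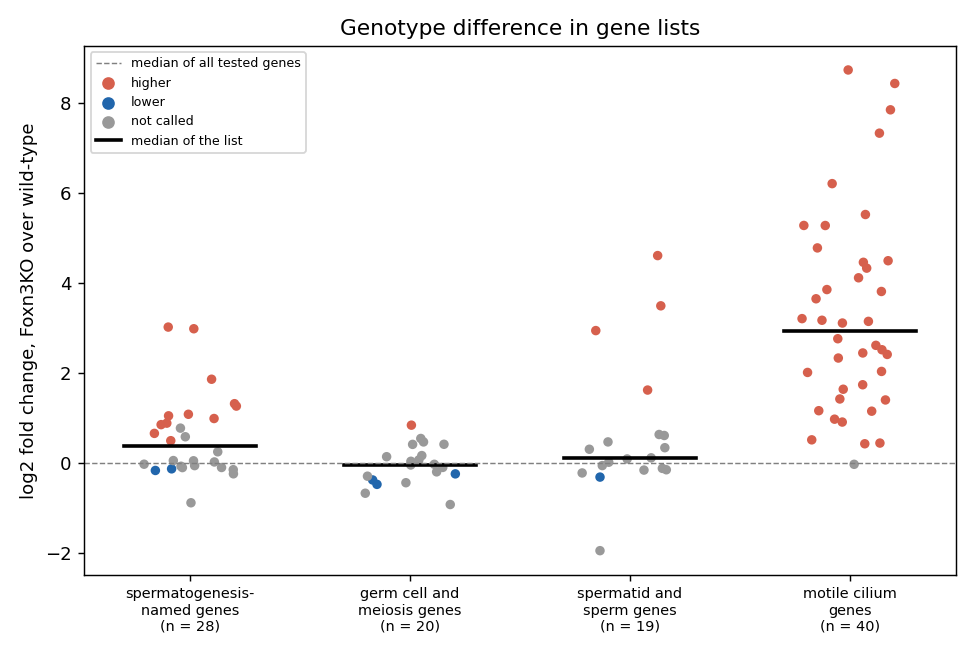
Log2 fold change (Foxn3KO over wild-type) of each tested gene in 4 lists, with red for higher, blue for lower and grey for not called; the black bar is the median of the list and the dashed line that of all tested genes. Medians are 0.37 for testis-named, -0.04 for germ cell and meiosis, 0.11 for spermatid and sperm and 2.93 for motile cilium genes.

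Lens RNA and sex were set beside the rises. Lens markers summed to 5.36 CPM in wild-type replicate 1 and 62.0 CPM in wild-type replicate 2. Genes that rose in Foxn3KO went both ways between these libraries. Spag8 had 1.61 and 1.55 CPM in them, Ropn1l 1.13 and 0.883 CPM, and Spata17 0.605 and 0.478 CPM. Tex26 had 1.33 and 1.73 CPM, Tex52 1.41 and 1.73 CPM, and Spata13 49.4 and 58.4 CPM. Several of these values rest on few counts, such as 15 and 13 for Spata17 and 33 and 47 for Tex26. Because the wild-type libraries also differ in sex, differences between them cannot be assigned to lens RNA. Without wild-type replicate 1, the library with Xist and the least lens RNA, the same 12 genes were called higher. Over all 4 libraries, markers of lens and of pigment epithelium differed between the genotypes, and their part in the rises was not tested.

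An adjusted p is given in the authors' deposited table for 24 of the 31 genes. There, the authors' deposited table has 12 genes higher and 1 lower at an adjusted p under 0.05, beside 10.1% higher among all genes with an adjusted p. The 12 higher genes of the authors' deposited table are those called higher here, and the gene that fell in it was Spag9, with an adjusted p of 0.0385. For Spag8 the authors' deposited table gives a log2 fold change of 2.98, and for Tex15, a gene with few counts, 0.93. DESeq2 run here on the same counts gave 1.25 for Tex15. For Spata6l it gave 0.57, against 0.12 in the authors' deposited table. Deposited fold changes of genes with few counts are thus not the same measure as those given here, and the reason was not tested.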

How the data were processed

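Retinal RNA of 4 mouse embryos was compared. The authors deposited raw read counts per gene and library, which were used as they stand. The FPKM values deposited by the authors served only to derive relative gene lengths. The mean signal per gene, the log2 fold changes and the p-values deposited by the authors came with the same table. DESeq2 and mm39 are named in the submitters' processing notes, and the aligner, counter and annotation are not given in the sources used here. A repeated identifier was dropped, leaving 18471 genes.

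Counts were filtered with filterByExpr (17300 genes), scaled with TMM and compared by edgeR 4.0.16 (R 4.3.3), using a two-sided quasi-likelihood F test with genotype as the only term, fitted with legacy set to FALSE. Benjamini-Hochberg adjustment ran over all tested genes, with a threshold of 0.05. Standard errors and 95% intervals came from the fold change and its F statistic. On simulated data with 17300 genes for this contrast, 83% of 2-fold and 97% of 4-fold changes were called, with 10 unchanged genes called. The simulation gave both groups the same spread.

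Members, role groups, gene lists and motifs were chosen with earlier results of these data known. Named genes were Foxn3, called members, the 5 members highest per kilobase, paralogue pairs and the 3 genes with the smallest p of each list, of which 1 is not reported here. The remaining members and further list genes were named after their values were seen, and rank order in the text uses CPM over gene length. Alternatives were RLE and total count scaling, other filters, DESeq2 1.42.0, limma-voom (limma 3.58.1), the earlier edgeR fit, a replicate block and leaving out each library. P-values measure the spread between these embryos. Figures used matplotlib 3.10.9.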

Additional observations from a re-analysis of the deposited data

How the results depend on the processing

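The count of 12 members called higher, and which 12 they were, was the same under each scaling, filter and test run and without each library in turn. It was 16 with the 4 available genes that the rule leaves out put back, and 12 with 3 genes of older matching names added, a choice made after seeing the data. The count called lower was 1 under DESeq2 and 0 to 3 when a library was left out. All genes called numbered 3795, against 2425 under DESeq2 and 2323 to 5067 when a library was left out. The median log2 fold change of the members ranged from 0.182 to 0.543 when a library was left out; the cause was not tested. Under total count scaling the share of calls that were higher fell to 1916 of 3976 genes from 2123 of 3795, and the median over all genes was -0.03.

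At a minimum of 0.1 CPM in place of 1 CPM, 31 members counted as detected. Without gene length, 4 of the 5 highest genes stayed in the top 5. No pairing of the embryos by replicate number was seen, with a correlation of replicate differences between the groups of -0.0083. This value alone cannot exclude a pairing. With the replicate block, 12 members were called higher and 3 lower, the addition being Tex10, out of 4222 genes called in all. Over the 28 tested members, the alternatives without leaving out a library gave 217 unchanged results, 2 newly past the threshold (Tex10) and 1 no longer past it (Tex261). Depth limits the members near 10 counts per library, such as Spag6, Tex38 and Spata31d1e.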
